A study of Mus musculus with 30 samples.

Results

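Interferon-gamma and the proteins that carry or damp its signal were followed through 9 genes in 3 populations taken from mouse tumours. The genes were found by name in the deposited tables and matched by identifier across all 3 of them, which gave 9 of 55401 genes. They are the ligand Ifng, the receptor chains Ifngr1 and Ifngr2, the receptor-bound kinases Jak1 and Jak2, the transcription factors Irf1 and Irf8, and the inhibitors Socs1 and Socs3. Mice bore tumours of 4T1, a mammary carcinoma line that carried green fluorescent protein, and the genotype is given as wild-type. The C269 groups received C269, an antibody against extracellular NAMPT (an NAD-pathway enzyme that also acts outside cells as a cytokine), for 1 month, with 2.5 mg/kg given 2 times weekly, and the CTRL groups received a control IgG1. From the tumours, 4T1 cells were sorted and CD4+ and CD8+ T cells were taken with magnetic beads, with 5 libraries in each of the 6 groups (4T1 C269, 4T1 CTRL, CD4 C269, CD4 CTRL, CD8 C269, CD8 CTRL). The labels used here give no mouse strain, sex or age, and they do not tie libraries to animals. P-values therefore measure only the spread between these libraries.

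Interferon-gamma is the type II interferon and is made mainly by activated CD8+ T cells, T helper 1 CD4+ cells and natural killer (NK) cells. It binds IFNGR1, and IFNGR2 completes the signalling receptor. JAK1 and JAK2, kinases held by IFNGR1 and IFNGR2, then start a signal that reaches the nucleus, where gamma-activated sequences (GAS) lie near induced genes such as Irf1. IRF1 in turn binds interferon-stimulated response elements (ISRE) and raises genes of antigen presentation, IRF8 is an interferon-inducible factor of myeloid and lymphoid cells, and SOCS1 and SOCS3 are induced inhibitors of cytokine receptor signalling. In tumours the pathway is known both for antitumour responses and for raising the checkpoint ligand PD-L1.

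The promoters of the pathway's 4 induced members are shown first. Between T cell libraries the transcripts of Irf1, Socs1 and Socs3 varied together. Irf8 ran opposite to them in CD8 and more weakly in CD4. The 250 bases before the start site (RefSeq, GRCm38.p6) were searched on both strands for the GAS letters TTCNNNGAA and for an ISRE-like string (GAAA, any 2 bases, GAAA). All 9 members had an entry. The GAS letters lay in 7.02% and the ISRE-like string in 2.98% of 32851 promoter windows of the same length. Below, each window is printed on the gene's own strand, 5′ to 3′, with matches in capitals, and its place is chr11:53769764-53770013 (plus strand) for Irf1, chr8:120736108-120736357 (plus) for Irf8, chr16:10785537-10785786 (minus) for Socs1 and chr11:117969367-117969616 (minus) for Socs3.
Irf1: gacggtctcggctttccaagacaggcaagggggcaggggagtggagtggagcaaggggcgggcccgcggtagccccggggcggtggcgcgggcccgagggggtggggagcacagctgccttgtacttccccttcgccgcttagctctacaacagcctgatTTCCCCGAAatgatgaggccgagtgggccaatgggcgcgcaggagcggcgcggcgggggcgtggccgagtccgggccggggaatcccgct
Irf8: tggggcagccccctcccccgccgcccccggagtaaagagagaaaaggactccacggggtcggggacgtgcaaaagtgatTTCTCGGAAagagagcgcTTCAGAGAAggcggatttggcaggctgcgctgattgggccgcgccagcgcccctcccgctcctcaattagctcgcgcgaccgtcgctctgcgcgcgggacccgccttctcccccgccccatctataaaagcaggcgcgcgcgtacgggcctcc
Socs1: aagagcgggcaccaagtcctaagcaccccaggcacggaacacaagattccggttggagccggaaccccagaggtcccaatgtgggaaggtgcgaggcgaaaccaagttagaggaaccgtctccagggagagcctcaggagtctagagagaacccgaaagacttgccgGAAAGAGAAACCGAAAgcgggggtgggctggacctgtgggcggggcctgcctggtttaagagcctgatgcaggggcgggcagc
Socs3: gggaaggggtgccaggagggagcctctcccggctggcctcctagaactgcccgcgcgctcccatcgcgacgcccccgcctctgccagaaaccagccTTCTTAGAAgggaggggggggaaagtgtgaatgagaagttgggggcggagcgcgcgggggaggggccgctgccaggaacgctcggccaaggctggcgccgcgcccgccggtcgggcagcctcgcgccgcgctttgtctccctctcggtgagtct
Irf1 held 1 GAS match, TTCCCCGAA, whose first base was at -90 from the start. Irf8 held 2, TTCTCGGAA at -171 and TTCAGAGAA at -153. Socs3 held 1, TTCTTAGAA at -154, before a RefSeq start that lies 681 bases from the gene start of the annotation used for the counts' positions. Socs1 held no GAS match and 2 overlapping ISRE-like matches, GAAAGAGAAA at -83 and GAAACCGAAA at -77. Ifng, the ligand gene, held 1 GAS match, TTCAGAGAA at -249, while the windows of Ifngr1, Ifngr2, Jak1 and Jak2 held neither set of letters. A match is only a string of letters and was not tested for binding.

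Levels are CPM, a gene's count relative to the sum over all genes of that library, and libraries are called by the number heading their column, with 6 to 10 in 4T1 C269, 1 to 5 in 4T1 CTRL, 16 to 20 in CD4 C269, 11 to 15 in CD4 CTRL, 26 to 30 in CD8 C269 and 21 to 25 in CD8 CTRL. Total counts ran from 2178682 to 5208420 per library. The bead-taken populations held the co-receptor of their label. Cd4, the helper T cell co-receptor, was at 116.3 to 183.5 CPM in CD4 C269 and 71.3 to 192 CPM in CD4 CTRL. Cd8a, the cytotoxic T cell co-receptor, was at 335 to 685 CPM in CD8 C269 and 357 to 619 CPM in CD8 CTRL. They were not T cells alone. Macrophage marker sums were 787 to 1710 CPM in CD4 C269 and 845 to 3665 CPM in CD4 CTRL. T cell marker sums there were 1469 to 2176 and 960 to 2295 CPM. In CD8, macrophage sums were 544 to 1835 CPM in C269 and 706 to 1653 CPM in CTRL. T cell sums there were 3005 to 4019 and 3150 to 4089 CPM. The 4T1 fraction did not look like tumour cells alone. The summed CPM of 6 neutrophil markers ran from 366 to 12605 in 4T1 C269 and from 3842 to 13601 in 4T1 CTRL, and that of 6 epithelial markers from 364 to 5649 in 4T1 C269 and from 226 to 577 in 4T1 CTRL. The epithelial sum was 296 to 787 CPM in CD4 C269 and 213 to 330 CPM in CD4 CTRL, overlapping the 4T1 ranges. In CD8 it was 48.0 to 545 CPM in C269 and 35.9 to 105 CPM in CTRL. Differences between 4T1 and T cells are therefore differences between fractions. Libraries 9 and 10 stood apart, with summed goblet cell markers of 5777 and 6641 CPM against 9.63 to 77.6 CPM in the other 3 libraries of 4T1 C269. The C269 change of each of the 9 genes in 4T1 is given with and without them. Comparisons of populations in C269 include them unless stated otherwise. In CD4 CTRL, library 14 had the lowest T cell marker sum (960 CPM) and the highest macrophage marker sum (3665 CPM) of its group. In bulk RNA, fewer cells of a type and less RNA per cell cannot be told apart.

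**Figure D1:**
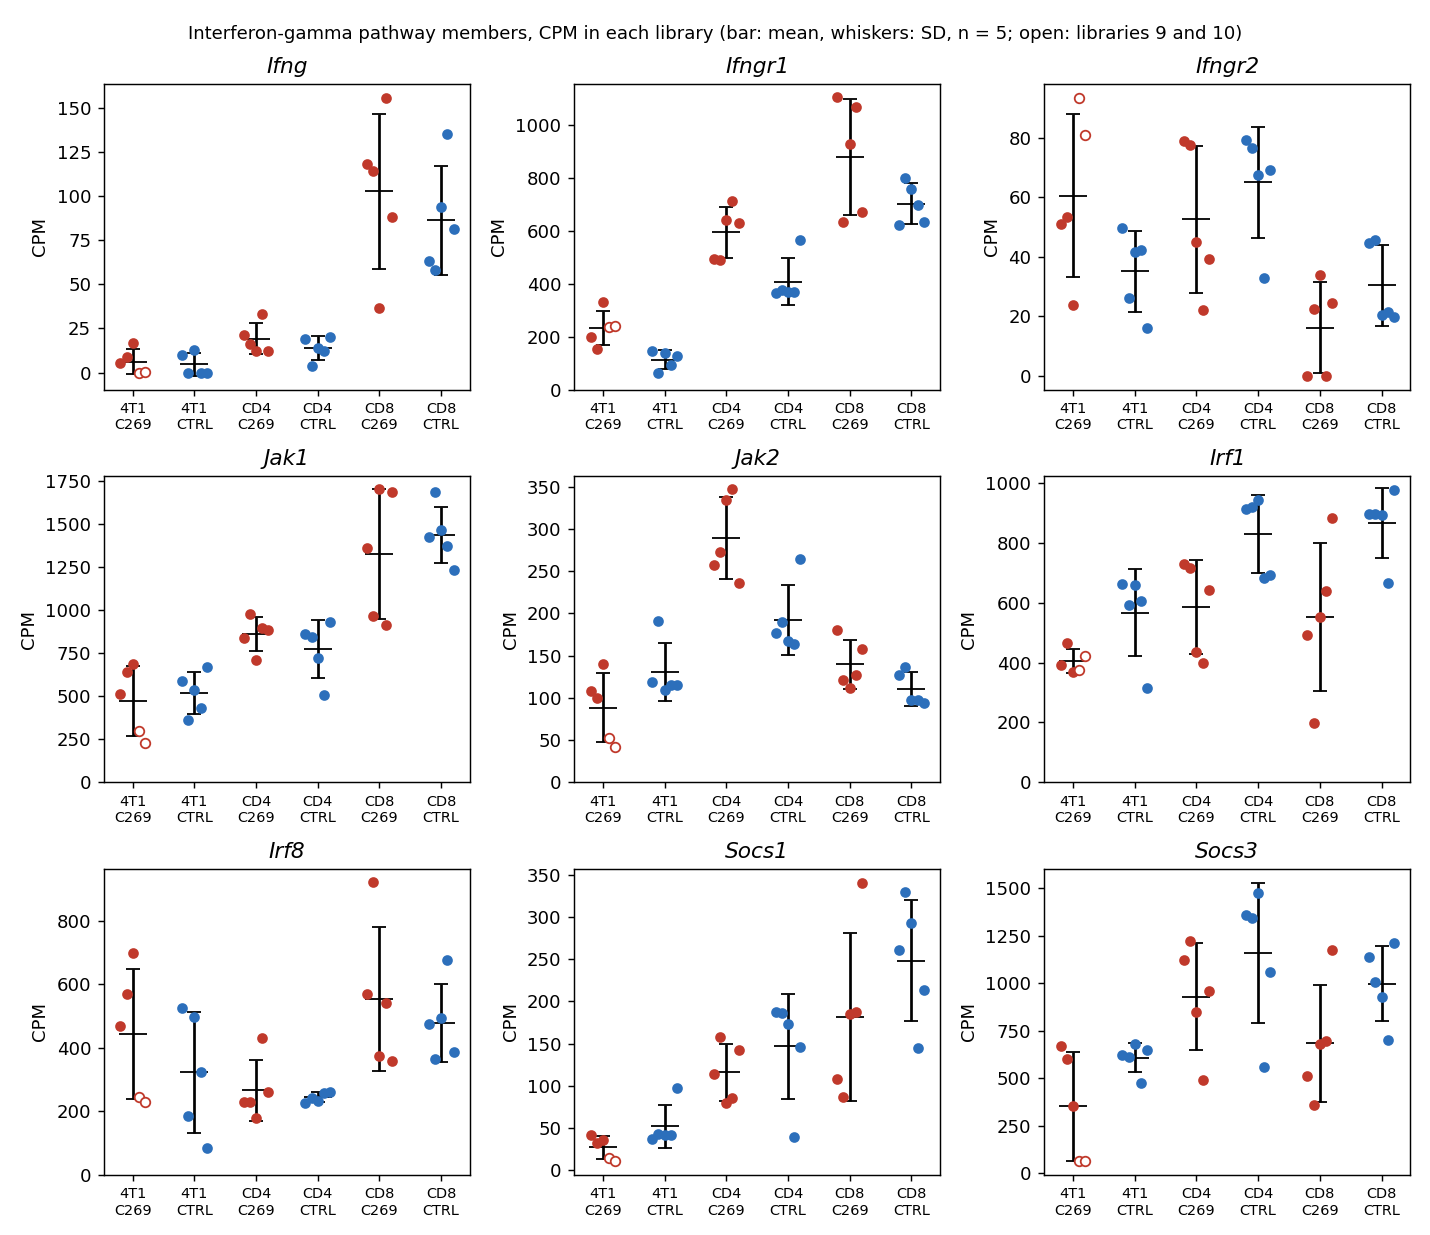
CPM of each of the 9 genes in every library, by population and treatment (points: libraries; bar: mean; whiskers: SD, n = 5; open points: libraries 9 and 10 of 4T1 C269; each panel has its own linear axis). Ifng is highest in both CD8 groups, Ifngr1 of the 4T1 fraction lies at 153.9 to 331 CPM in C269 and at 63.0 to 146 CPM in CTRL, and the Irf1 mean is lower in C269 in each population.

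Ifng, the ligand (chr10:118441046-118445892 in GRCm38, plus strand), was a transcript of the CD8 fraction. In CD8 C269 it measured 118, 115, 36.7, 156 and 88.4 CPM in libraries 26 to 30, and in CD8 CTRL 63.2, 58.0, 93.7, 135 and 81.5 CPM in libraries 21 to 25. The 2 groups overlapped over nearly their whole range, with the lowest value of all in C269 library 28. In CD4 C269 the values were 21.3, 16.05, 12.5, 33.4 and 12.2 CPM, against 19.1, 3.84, 14.1, 12.3 and 20.4 CPM in CD4 CTRL. Every CD4 library lay below every CD8 library. In the 4T1 fraction Ifng measured 5.19, 8.81, 16.7, 0 and 0.58 CPM in C269 libraries 6 to 10 and 9.84, 0, 12.99, 0 and 0 CPM in CTRL libraries 1 to 5. A count of 0 allows up to 0.674 CPM in library 9, 1.28 in library 2, 0.753 in library 4 and 1.04 in library 5 (3 counts of the library, counting error only).

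No C269 difference in Ifng exceeded the spread between libraries. The log2 fold change of C269 over CTRL was 0.27 in CD8 (SE 0.32, edgeR quasi-likelihood test with Benjamini-Hochberg adjustment over all genes, adjusted p = 0.901), 0.43 in CD4 (SE 0.38, adjusted p = 0.92) and 0.33 in 4T1 (SE 1.5, adjusted p = 0.953). The 4T1 value was 1.03 (SE 1.41) without libraries 9 and 10 and -0.31 without library 8. The 4T1 libraries with more Ifng were those with more NK and T cell marker RNA. The summed CPM of 6 NK markers was 81.0 to 382 and that of 9 T cell markers 205 to 317 in the 5 libraries with Ifng above 5 CPM (1, 3, 6, 7 and 8), against 0 to 12.5 and 13.5 to 117 CPM in the other 5. The part of those cells in the 4T1 values was not tested.

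**Figure D2:**
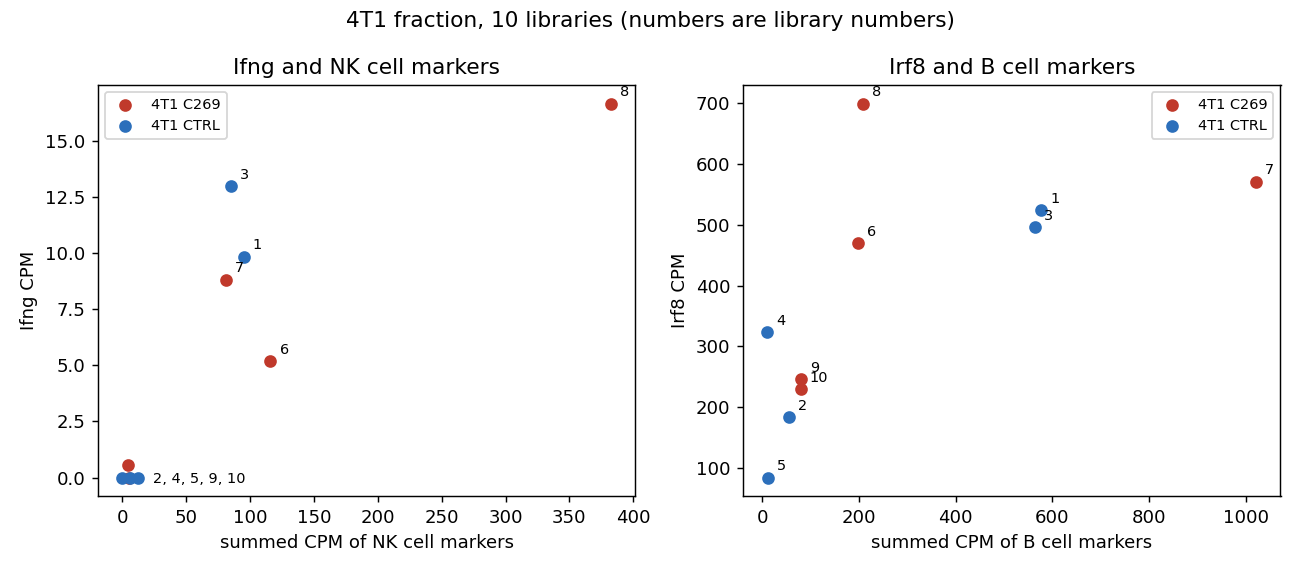
The 10 libraries of the 4T1 fraction, with Ifng CPM against the summed CPM of 6 NK cell markers (left) and Irf8 CPM against that of 5 B cell markers (right), each point labelled with its library number. Ifng is at or near 0 in libraries 2, 4, 5, 9 and 10, where the NK sum is 12.5 CPM or less, and Irf8 is above 460 CPM in libraries 1, 3, 6, 7 and 8, where the B cell sum is 198 CPM or more. Libraries 1, 3, 6, 7 and 8 also have the higher NK and T cell sums.

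Between populations, Ifng was higher in CD8 than in CD4 by 2.70 on the log2 scale in CTRL (SE 0.76, edgeR adjusted p = 0.0254), with means of 86.4 ± 30.9 CPM in CD8 and 13.9 ± 6.59 CPM in CD4 (SD, n = 5 each). In C269, where the libraries are others, the difference was 2.53 (SE 0.74, adjusted p = 0.0657), with means of 103 ± 44.1 and 19.1 ± 8.80 CPM. That difference was called when library 9 or 10 was left out (edgeR adjusted p = 0.018 and 0.0349), 4T1 libraries that share the fit. The order of the values was the same under both treatments, with no overlap between CD8 and CD4. The share of all genes without overlap between populations was not counted, here or for the other members. The CTRL call was lost with DESeq2 (adjusted p = 0.0913) and when library 12, 13, 14, 23 or 24 was left out, where the change stayed between 2.46 and 2.71 and the highest adjusted p was 0.0656. The 4T1 fraction was below CD8 by 4.02 in CTRL (SE 0.83, adjusted p = 0.001) and by 4.01 in C269 (SE 0.80, adjusted p = 0.00331; 3.29 without libraries 9 and 10). It did not differ beyond the spread from CD4, with -1.32 in CTRL (SE 0.79, adjusted p = 0.302) and -1.48 in C269 (SE 0.74, adjusted p = 0.311). NK cell markers were also higher in CD8, with a sum of 321 to 711 CPM in C269 and 311 to 448 CPM in CTRL, against 29.8 to 83.0 CPM and 12.6 to 28.01 CPM in CD4. Of these markers, Ncr1, the NK receptor NKp46, was at 0 in 4 of 5 CD8 C269 libraries and in all 5 CD8 CTRL libraries, Klra8 was at 0 in both groups and Klrb1c in CD8 C269.

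Ifngr1, the ligand-binding receptor chain (chr10:19591949-19610229, plus strand), had the smallest unadjusted p of the 9 members for the C269 change in the 4T1 fraction. It measured 199, 153.9, 331, 236 and 242 CPM in C269 libraries 6 to 10, against 146, 63.0, 139.8, 92.8 and 125 CPM in CTRL libraries 1 to 5. All 5 C269 values lay above all 5 CTRL values. Of 11435 genes with a mean of at least 5 CPM, 1.01% showed this order in the 4T1 fraction and 1.34% the opposite one. The log2 fold change was 1.02 (SE 0.30, edgeR unadjusted p = 0.00536, adjusted p = 0.355) and it was again 1.02 (SE 0.34, adjusted p = 0.809) without libraries 9 and 10. By edgeR none of the 9 members passed in 4T1, where 0% of 12875 genes were called and 1557 genes had an unadjusted p under 0.05, Ifngr1 being the 1 member among them. DESeq2 called 1 of 9 members, Ifngr1 (1.03, SE 0.33, adjusted p = 0.0352), and did not call it without libraries 9 and 10 (adjusted p = 0.227). With all libraries it called 998 of 27527 genes with any count (3.63%), a base wider than the 12875 genes of edgeR. An edgeR fit of all 30 libraries, its spread estimated over all populations, also called it (1.06, adjusted p = 0.00929). That fit called 606 of 14731 genes in 4T1. In the authors' deposited DESeq2 table, which gives CTRL over C269, it stood at -1.01 with an adjusted p of 0.0392. The share of genes called there was not counted. Both rest on the same 4T1 libraries as the main test. T cell marker sums of the fraction ran from 117 to 317 CPM in C269 and from 13.5 to 205 CPM in CTRL. The part of T cells in the Ifngr1 values was not tested.

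In the T cells Ifngr1 was higher on average in C269 as well, by less. CD4 C269 held 492, 491, 640.0, 713 and 629 CPM and CD4 CTRL 363, 375, 367, 368 and 566 CPM. Only CTRL library 15 reached into the C269 range. The change was 0.52 (SE 0.16, edgeR unadjusted p = 0.00532, adjusted p = 0.743). In CD8 C269 it measured 1103, 631, 926, 1066 and 670.4 CPM and in CD8 CTRL 620.4, 798, 758, 696 and 634 CPM, a change of 0.34 (SE 0.18, adjusted p = 0.753) with overlapping groups. The 4T1 effect was larger than the CD8 effect by 0.76 (SE 0.32, unadjusted p = 0.0235, adjusted p = 0.233) and than the CD4 effect by 0.55 (SE 0.32, adjusted p = 0.608), neither past the threshold.

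Ifngr2, the signal-completing chain (chr16:91547072-91565623, plus strand), was scarce in every population. It ran from 23.8 to 93.6 CPM in 4T1 C269 and from 15.9 to 49.6 CPM in 4T1 CTRL, with its highest values in libraries 9 and 10 (93.6 and 81.1 CPM). Its 4T1 change of 0.81 (SE 0.41, edgeR adjusted p = 0.451) was 0.38 (SE 0.44, adjusted p = 0.918) without those libraries. In CD4 it ran from 22.2 to 79.0 CPM in C269 and from 33.0 to 79.4 CPM in CTRL (-0.32, SE 0.33, adjusted p = 0.927). CD8 C269 held 0, 22.4, 33.96, 0 and 24.6 CPM, against 44.8, 45.5, 20.4, 21.5 and 19.7 CPM in CD8 CTRL. Libraries 26 and 29 had no Ifngr2 count, which allows up to 1.14 and 1.48 CPM there, and the other 3 lay within the CTRL range. The CD8 change was -0.90 (SE 0.82, adjusted p = 0.867).

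Receptor chains differed between populations mainly through Ifngr1. In CTRL its mean was 701 ± 76.9 CPM in CD8, 408 ± 88.4 CPM in CD4 and 113 ± 34.8 CPM in 4T1 (SD, n = 5 each), and CD8 exceeded CD4 by 0.86 (SE 0.23, edgeR adjusted p = 0.0177), a call lost without library 14 (0.81, adjusted p = 0.0522). The 4T1 fraction lay below CD4 by 1.72 (SE 0.23, adjusted p = 0.000144) and below CD8 by 2.58 (SE 0.24, adjusted p = 1.08e-06), with no overlap in either case. In C269 it lay below CD4 by 1.21 (SE 0.22, adjusted p = 0.00822) and below CD8 by 1.87 (SE 0.23, adjusted p = 0.000103), while CD8 exceeded CD4 by 0.66 (SE 0.22, adjusted p = 0.107). Ifngr2 went the other way between the T cells, at -1.02 in CD8 against CD4 in CTRL (SE 0.35, adjusted p = 0.0675) and -1.62 in C269 (SE 0.84, adjusted p = 0.341). That CTRL difference was called with DESeq2 (adjusted p = 0.0457), with no low-count filter (adjusted p = 0.0456) and without library 5 or 14 (adjusted p = 0.0346 and 0.0345).

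Jak1, the kinase held by IFNGR1 and shared with many other cytokine receptors (chr4:101152367-101265282, minus strand), had overlapping C269 and CTRL ranges in every population. It ran from 709 to 976 CPM in CD4 C269 and from 505 to 928 CPM in CD4 CTRL, and from 914 to 1703 CPM in CD8 C269 and from 1236 to 1684 CPM in CD8 CTRL. Its change was 0.13 in CD4 (SE 0.17, edgeR adjusted p = 0.946) and -0.11 in CD8 (SE 0.18, adjusted p = 0.923). In 4T1 C269 it measured 509.7, 642, 686, 300.2 and 229.7 CPM, against 587, 363, 534, 431 and 669 CPM in 4T1 CTRL. Libraries 9 and 10 were the lowest of all, and the change was -0.10 (SE 0.35, adjusted p = 0.935) with them and 0.29 (SE 0.27, adjusted p = 0.901) without them. In CTRL Jak1 was higher in CD8 than in CD4 by 0.97 (SE 0.21, adjusted p = 0.00512) and lower in 4T1 than in CD8 by 1.44 (SE 0.21, adjusted p = 6.14e-05). In C269 the same differences were 0.71 (SE 0.29, adjusted p = 0.197) and -1.42 (SE 0.29, adjusted p = 0.00411).

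Jak2, the kinase held by IFNGR2 (chr19:29251828-29313080, plus strand), had higher values in C269 in CD4 and lower ones in the 4T1 fraction. CD4 C269 held 258, 273, 334, 347 and 237 CPM, against 177, 190.2, 167, 164 and 265 CPM in CD4 CTRL. The other 4 CTRL values lay below every C269 value, and only library 15 lay within the C269 range. The CD4 change of 0.57 (SE 0.16, edgeR unadjusted p = 0.00305, adjusted p = 0.7) was the smallest unadjusted p of any member there. In CD8 the values were 181, 122, 111, 127 and 157 CPM in C269 and 127, 137, 97.6, 97.0 and 93.7 CPM in CTRL (0.34, SE 0.19, adjusted p = 0.776). In 4T1 they were 108, 99.2, 139.8, 51.9 and 41.3 CPM in C269 and 119, 191, 109, 116 and 116 CPM in CTRL. The 4T1 change was -0.51 (SE 0.34, adjusted p = 0.57) and -0.09 (SE 0.22, adjusted p = 0.966) without libraries 9 and 10, which held the lowest values.

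The difference between the 4T1 and CD4 effects on Jak2 was -1.04 (SE 0.34, edgeR unadjusted p = 0.00515, adjusted p = 0.322), and -0.62 (SE 0.27) without libraries 9 and 10. None of the 9 members passed in any of the 3 tests of a difference between populations' effects, in which 0% (CD8 minus CD4), 0.00679% (4T1 minus CD4) and 0.00679% (4T1 minus CD8) of 14731 genes were called and 566, 1386 and 2400 genes had an unadjusted p under 0.05. DESeq2 also called no member, with 0.0611%, 0.244% and 1.92% of genes called. Members at an unadjusted p under 0.05 were Jak2 in 4T1 minus CD4 and Ifngr1 and Jak2 in 4T1 minus CD8. Among populations, CD8 had less Jak2 than CD4 by 0.72 in CTRL (SE 0.19, adjusted p = 0.0163), with 110.4 ± 19.9 against 193 ± 41.6 CPM and no overlap. That call was lost without library 15 (-0.58, adjusted p = 0.0525). In C269 the difference was -0.96 (SE 0.28, adjusted p = 0.0662), again with no overlap, and was called with DESeq2 (adjusted p = 0.026). It was also called by edgeR when library 9 or 10 of the 4T1 fraction was left out (adjusted p = 0.0451 and 0.031).

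**Figure D3:**
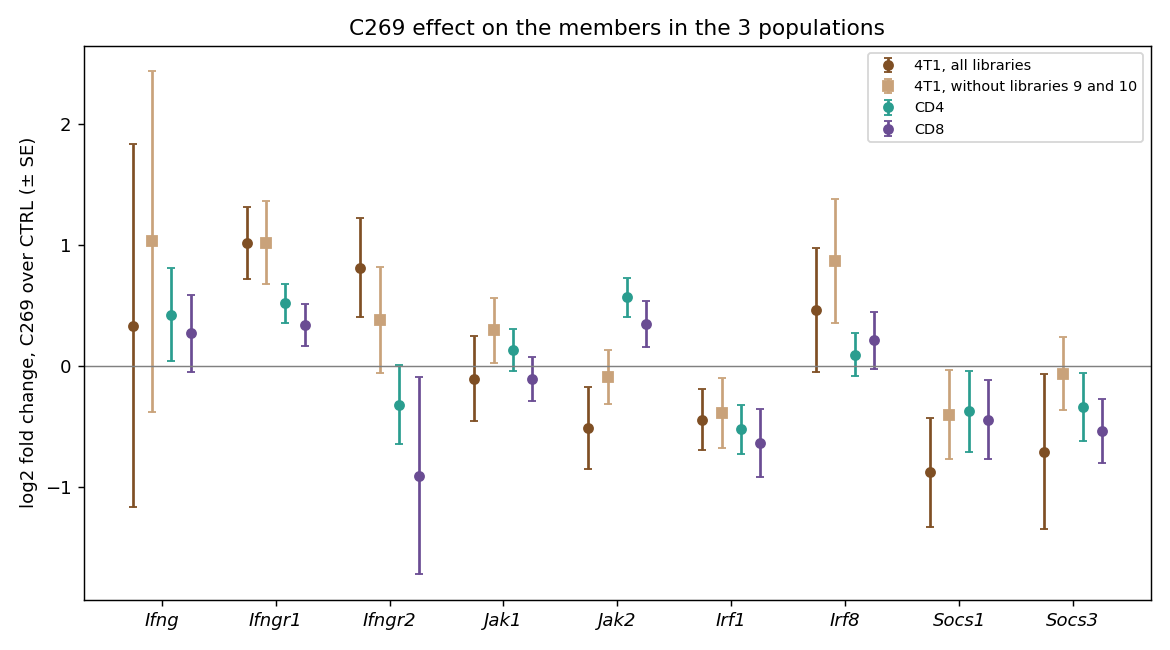
Log2 fold change of C269 over CTRL for the 9 genes (points: edgeR estimate; whiskers: SE) in the 4T1 fraction with all libraries and without libraries 9 and 10, in CD4 and in CD8. Ifngr1 is above 0 in each population and Irf1 below 0, while Jak1, Jak2 and Socs3 of the 4T1 fraction move toward or past 0 without libraries 9 and 10.

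Irf1, a transcription factor whose gene is induced by interferon-gamma (chr11:53770014-53778374, plus strand), had a lower mean in C269 in all 3 populations. CD8 C269 held 492, 198, 552, 638 and 884 CPM, against 897, 896, 895, 667 and 979 CPM in CD8 CTRL. In all, 4 of the 5 C269 libraries lay below every CTRL library, and library 27 was the lowest by far. The CD8 change was -0.63 (SE 0.28, edgeR unadjusted p = 0.0395, adjusted p = 0.742), and it passed with no low-count filter (-0.68, adjusted p = 0.025). CD4 C269 held 729, 716, 437, 398 and 644 CPM and CD4 CTRL 914, 920.3, 942, 683 and 692 CPM. C269 libraries 18, 19 and 20 lay below all of CTRL. The CD4 change was -0.52 (SE 0.20, unadjusted p = 0.0215, adjusted p = 0.865).

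In the 4T1 fraction Irf1 measured 394, 464, 370.0, 376 and 424 CPM in C269, against 662, 592, 661, 607 and 313 CPM in CTRL. All 5 C269 values fell between CTRL library 5 and the other 4 CTRL libraries. The change was -0.44 (SE 0.25, edgeR adjusted p = 0.502), -0.39 (SE 0.29, adjusted p = 0.885) without libraries 9 and 10, and -0.60 without library 5, the lowest of the changes with 1 library left out. Library 5 had a fibroblast marker sum of 35333 CPM, against 2232 to 7005 CPM in the other CTRL libraries of the fraction. The sign was negative in every leave-one-out fit of the 3 populations (-0.87 to -0.43 in CD8, -0.63 to -0.40 in CD4, -0.60 to -0.37 in 4T1). Neither CD4, in which 0% of 12393 genes were called (697 at an unadjusted p under 0.05), nor CD8, in which 0.00914% of 10943 genes were called (725 at an unadjusted p under 0.05), had a member past the threshold. C269 lay wholly above or below CTRL for no member in CD4 or CD8, where 0.385% and 0.595% of the 11435 genes lay wholly above and 0.324% and 0.647% wholly below. At an unadjusted p under 0.05 there were 3 members in CD4 (Ifngr1, Jak2 and Irf1) and 1 in CD8 (Irf1), and DESeq2 called no member in either (0.0612% and 0.0621% of genes called).

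Irf8, an interferon-inducible factor also known for its part in myeloid and B cell development (chr8:120736358-120756694, plus strand), did not pass the test in any population. It measured 228, 228, 180.4, 432 and 261 CPM in CD4 C269, against 225, 243, 232, 259 and 261 CPM in CD4 CTRL. Library 19, at 432 CPM, also had the highest NK (83.0 CPM), B cell (93.3 CPM), dendritic cell (137 CPM) and goblet cell (45.9 CPM) marker sums of its group. It had the fewest genes detected (16676) and the largest ribosomal RNA share (4.39%) there as well. The CD4 change was 0.09 (SE 0.18, edgeR adjusted p = 0.962) and -0.12 without library 19. In CD8 it was 0.21 (SE 0.23, adjusted p = 0.89) and -0.04 without library 27, which held 922 CPM among C269 values of 359 to 922 CPM, against 365 to 675 CPM in CTRL. In 4T1 Irf8 measured 469, 571, 699, 246 and 229.7 CPM in C269 and 524, 184, 496, 323 and 84.8 CPM in CTRL (0.46, SE 0.51, adjusted p = 0.75; 0.87, SE 0.51, without libraries 9 and 10). Higher Irf8 went with higher B cell marker sums there, 198 to 1020 CPM in libraries 1, 3, 6, 7 and 8 against 11.3 to 80.8 CPM in the others. The same libraries had the higher NK and T cell marker sums, as given for Ifng. Library 4, with 323 CPM of Irf8 and a B cell sum of 11.3 CPM, had the highest macrophage (7243 CPM) and dendritic cell (186 CPM) sums of the fraction. The part of any of these cells in the Irf8 values was not tested.

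Across populations Irf1 was close to level between the T cells, with a CD8 minus CD4 difference of 0.14 in CTRL (SE 0.20, edgeR adjusted p = 0.735) and 0.01 in C269 (SE 0.32, adjusted p = 0.994). The 4T1 fraction had less Irf1 than CD8 by 0.59 in CTRL (SE 0.20, adjusted p = 0.0275), with 567 ± 145 against 867 ± 117 CPM and no overlap. This call was lost without library 2, 5, 21, 22 or 25 (adjusted p up to 0.0605), and in C269 the difference was -0.38 (SE 0.32, adjusted p = 0.416). Irf8 was higher in CD8 than in CD4 in CTRL with no overlap, 479 ± 123 against 244 ± 16.1 CPM (1.05, SE 0.36, adjusted p = 0.0629). In C269 the difference was 1.15 (SE 0.33, adjusted p = 0.064). The CTRL difference was called with DESeq2 (adjusted p = 0.0202), with DESeq2's size factors in edgeR (adjusted p = 0.0495), with no low-count filter (adjusted p = 0.0261) and without library 1, 2, 3 or 5 (adjusted p = 0.00842 to 0.0494).

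Socs1, the inhibitor of the JAK kinases (chr16:10782240-10785536, minus strand), had lower means in C269 but wide overlap in the T cells. CD8 C269 held 108, 86.8, 185, 187 and 341 CPM, against 261, 329, 293, 145 and 214 CPM in CD8 CTRL. Library 30 was the highest of all 10 and libraries 26 and 27 the lowest. The CD8 change was -0.44 (SE 0.32, edgeR adjusted p = 0.828). CD4 C269 ran from 79.9 to 158 CPM and CD4 CTRL from 39.8 to 188 CPM (-0.37, SE 0.34, adjusted p = 0.92). In 4T1 the values were 42.0, 32.8, 35.996, 14.1 and 11.01 CPM in C269 and 36.6, 43.0, 41.2, 41.1 and 97.3 CPM in CTRL. Libraries 9 and 10 and CTRL library 5 made the ends of that range, and the change of -0.88 (SE 0.45, adjusted p = 0.457) was -0.40 (SE 0.37, adjusted p = 0.9) without libraries 9 and 10 and -0.52 without library 5.

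Socs3, an inhibitor of gp130-type cytokine receptors that is also interferon-inducible (chr11:117966079-117970047, minus strand), behaved like Socs1 in the T cells. It measured 512.5, 357, 678, 696 and 1174 CPM in CD8 C269, against 1140.3, 1007, 926, 703 and 1212 CPM in CD8 CTRL, so that 4 of 5 C269 libraries lay below every CTRL library. The CD8 change was -0.54 (SE 0.26, edgeR unadjusted p = 0.0571, adjusted p = 0.742). In CD4 it ran from 492 to 1223 CPM in C269 and from 559 to 1477 CPM in CTRL (-0.34, SE 0.28, adjusted p = 0.918). The 4T1 change rested on libraries 9 and 10. They held 63.8 and 64.5 CPM, against 669, 602 and 354 CPM in libraries 6 to 8 and 477 to 678 CPM in CTRL, and the change was -0.71 (SE 0.64, adjusted p = 0.683) with and -0.06 (SE 0.30, adjusted p = 0.982) without them. Those libraries also had the lowest neutrophil marker sums of the fraction, 366 and 372 CPM, and the part of other cells in their Socs3 values was not tested.

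Both inhibitors were lower in the 4T1 fraction than in T cells. In CTRL Socs1 averaged 51.8 ± 25.5 CPM in 4T1, against 147 ± 62.1 CPM in CD4 and 249 ± 71.7 CPM in CD8. It lay below CD4 by 1.42 (SE 0.38, edgeR adjusted p = 0.0213), a call lost without library 12 or 13 (adjusted p = 0.0561 and 0.0516), and below CD8 by 2.24 (SE 0.39, adjusted p = 0.000247). In C269 these differences were -1.92 (SE 0.43, adjusted p = 0.0259; lost without library 9, 16, 17 or 20, with an adjusted p of up to 0.0775) and -2.66 (SE 0.44, adjusted p = 0.00114), and -1.47 (adjusted p = 0.0495) and -2.21 (adjusted p = 0.00164) without libraries 9 and 10. Socs3 in CTRL lay below CD4 by 0.84 (SE 0.25, adjusted p = 0.0332) and below CD8 by 0.69 (SE 0.25, adjusted p = 0.033). Both Socs3 calls depended on single libraries, the first being lost without library 2, 4, 11, 12, 13 or 15 (adjusted p up to 0.0854) and the second without library 2, 4, 21, 22 or 25 (adjusted p up to 0.076). In C269 Socs3 did not pass, at -1.22 (SE 0.58, adjusted p = 0.286) and -0.86 (SE 0.58, adjusted p = 0.307).

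Counted over the 9 genes in CTRL, CD8 against CD4 had 3 higher (Ifng, Ifngr1, Jak1) and 1 lower (Jak2), where 12.6% of 13201 genes were called, 3.47% higher and 9.09% lower. DESeq2 called 5 (Ifngr1, Ifngr2, Jak1, Jak2 and Irf8, with 7.68% of genes called). The 4T1 fraction had 3 lower than CD4 (Ifngr1, Socs1, Socs3; 12.7% of genes called, 5.71% lower) and 6 lower than CD8 (Ifng, Ifngr1, Jak1, Irf1, Socs1, Socs3; 40.6% called, 17.9% lower), and none higher. In C269 edgeR with all libraries called no member between CD8 and CD4, where 4.06% of 13235 genes were called (538 genes). At an unadjusted p under 0.05 there were 2343 genes, 5 of them members. DESeq2 called Ifng, Ifngr1, Jak2 and Irf8, with 4.9% of genes called. When library 9 or 10 was left out, edgeR called Ifng and Jak2 (227 to 643 genes called over all fits with 1 library left out). All 4 CTRL calls kept their sign in C269. Against CD4, the C269 libraries of the 4T1 fraction had Ifngr1, Jak2 and Socs1 lower (3.15% called, 1.93% lower), 2 of which were CTRL calls. These calls include libraries 9 and 10, which held the lowest Jak2 of the fraction (51.9 and 41.3 CPM). Against CD8 they had Ifng, Ifngr1, Jak1 and Socs1 lower (21.2% called, 8.83% lower), all 4 of which were among the 6 CTRL calls. Without libraries 9 and 10, Irf8 was also called higher in the 4T1 fraction than in CD4 in C269 (1.29, SE 0.27, adjusted p = 0.0111), where 3.42% of 13893 genes were called, 1.75% higher and 1.67% lower. The 4 calls against CD8 stood without these libraries (15.7% of genes called, 6.49% lower). The dependence of these differences on treatment was tested only through the differences of effect above.

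**Figure D4:**
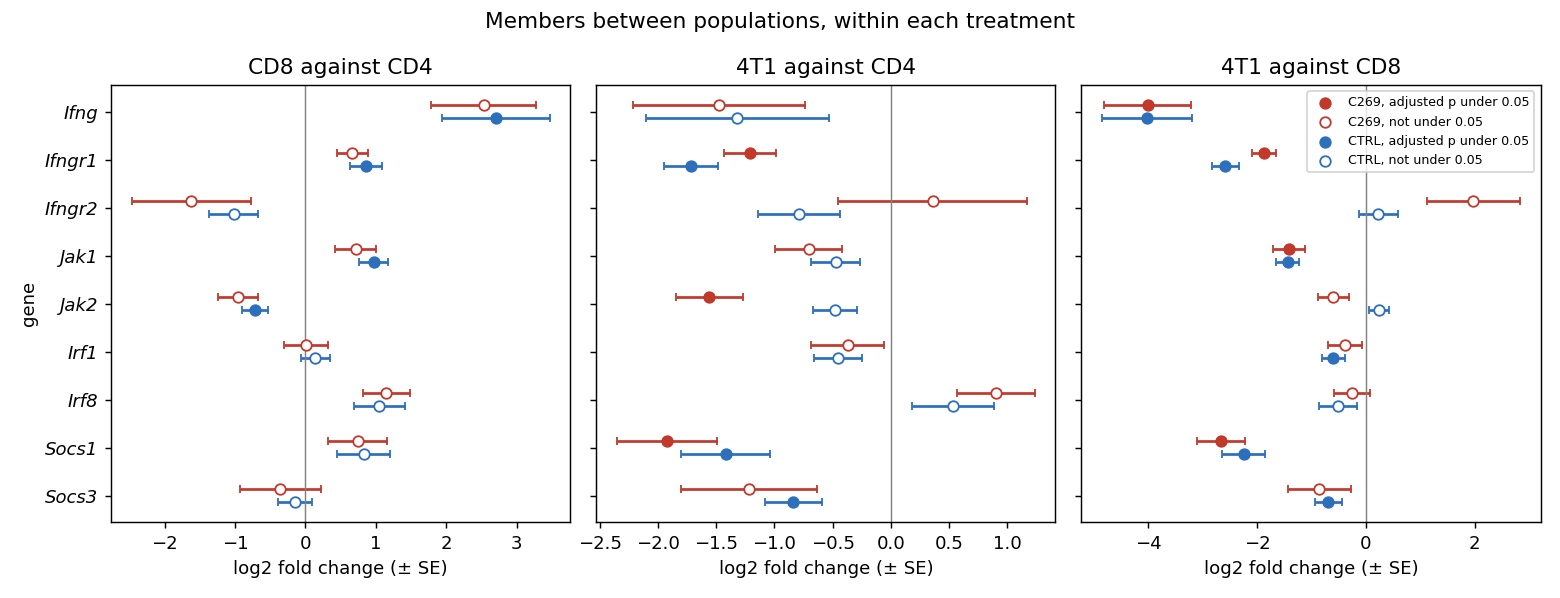
Log2 fold change between populations within C269 (red) and within CTRL (blue) for the 9 genes (points: edgeR estimate; whiskers: SE; filled: adjusted p under 0.05). Ifng is higher in CD8 than in CD4 by 2.53 in C269 and 2.70 in CTRL, Ifngr1 and Socs1 are below 0 in both panels of the 4T1 fraction, and Jak2 is below 0 in CD8 against CD4.

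Per kilobase of exon, which allows genes to be set side by side, Socs3 had the highest mean in every CTRL group. In CD8 CTRL the mean CPM per kb was 345 for Socs3, 246 for Ifngr1, 218 for Irf1, 199 for Jak1, 85.5 for Socs1, 67.9 for Irf8, 66.7 for Ifng, 21.9 for Jak2 and 8.06 for Ifngr2. The receptor chains were thus far apart, Ifngr2 being the lowest member there. In 4T1 CTRL the order was led by Socs3 at 210.2 and Irf1 at 143 CPM per kb and ended with Ifngr2 at 9.31 and Ifng at 3.53 CPM per kb.

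Within groups, Irf1, Socs1 and Socs3 varied together from one T cell library to the next. Over the 20 CD4 and CD8 libraries, after each group's mean was subtracted from log2 CPM, Socs1 and Socs3 had a Pearson r of 0.88, Irf1 and Socs3 of 0.86 and Irf1 and Socs1 of 0.74. These values were 0.81, 0.84 and 0.75 without the 2 libraries farthest from the median of the first gene, 0.87, 0.87 and 0.68 in CD4 alone and 0.90, 0.93 and 0.85 in CD8 alone (10 libraries each). Jak1 went with Socs1 (r = 0.75; 0.54 without the 2 farthest libraries). Irf8 ran opposite to Irf1 (r = -0.75) and to Socs3 (r = -0.73), more weakly without the 2 farthest libraries (-0.48 and -0.53). With Socs1 its r was -0.52, and -0.39 without the 2 farthest libraries. In CD8 alone the r of Irf8 was -0.87 with Irf1, -0.88 with Socs3 and -0.84 with Socs1. In CD4 alone it was -0.46, -0.58 and -0.16. Values of 1 library share its preparation, depth and purity, and all 36 pairs of members were computed.

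**Figure D5:**
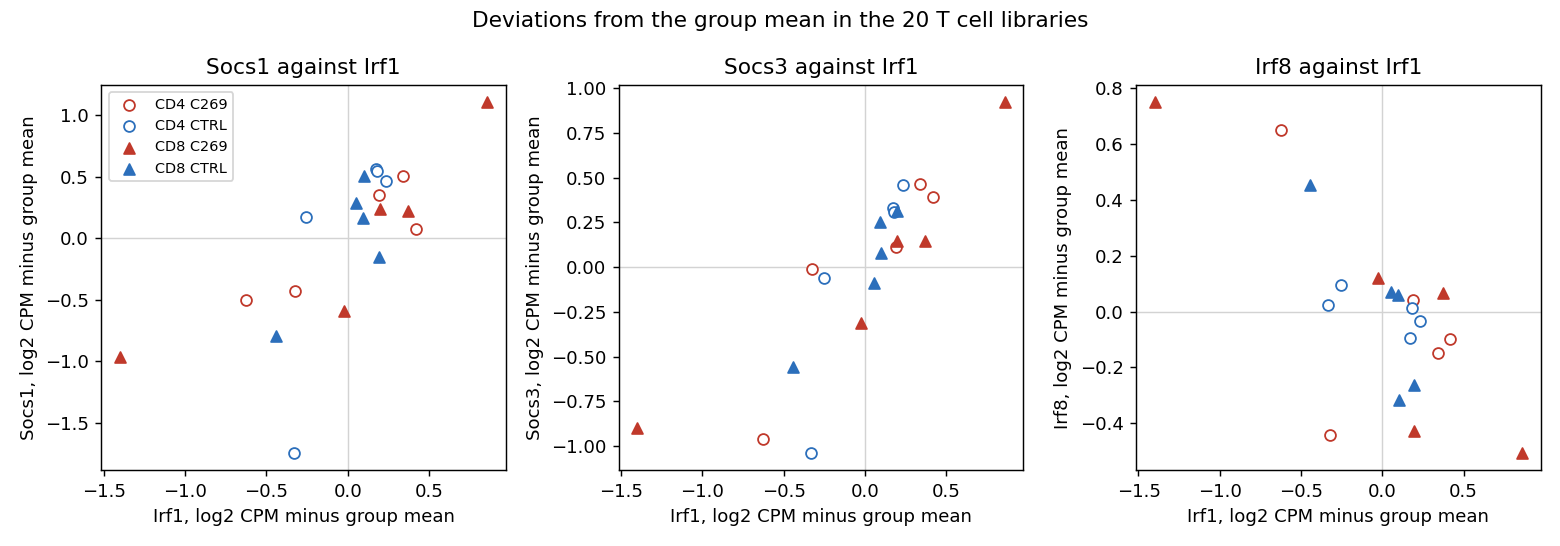
Deviation of log2 CPM from the group mean for Socs1, Socs3 and Irf8 against Irf1 in the 20 T cell libraries (circles: CD4; triangles: CD8; red: C269; blue: CTRL). Socs1 and Socs3 rise with Irf1 (r = 0.74 and 0.86) and Irf8 falls with it (r = -0.75).

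Marker sums listed for other cell types moved with the same genes. Over the same 20 group-centred libraries, the summed macrophage and monocyte markers had r = -0.85 with Socs1, -0.72 with Socs3, -0.67 with Irf1 and -0.74 with Jak1. The summed NK markers had r = 0.76 with Irf8, 0.65 with Ifng, -0.74 with Socs3 and -0.70 with Irf1. That list includes Eomes, which is also a regulator of Ifng in T cells. In CD8, Klra8 had no count in either group, Ncr1 none in CTRL and Klrb1c none in C269. The NK sum there need not come from NK cells, and its source was not tested. The percentage of counts in ribosomal RNA had r = 0.59 with Irf8 and -0.57 with Socs3, and the number of genes detected 0.65 with Irf1 and -0.67 with Irf8. Irf8 also went with the goblet cell (r = 0.70) and epithelial (r = 0.64) marker sums, so its link to the NK sum was not particular to that sum. Every member was set against every marker sum and library measure, and only some of these values are given. The part of other cells or of RNA quality in the members' values was not tested. Library 27, with the least Irf1 (198 CPM) and the most Irf8 (922 CPM) of the CD8 libraries, had the highest NK (711 CPM), macrophage (1835 CPM) and epithelial (545 CPM) marker sums among them and the smallest total count (2178682).

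By the same measure, among 9125 genes with a mean of at least 10 CPM in these libraries, those most like Socs1 were Trib2 (r = 0.93), Lef1 (0.91) and Ccr7 (0.91), the last 2 being markers of naive and central memory T cells. Most like Socs3 were Sbno2 (0.94), Arl4c (0.94) and Dtx1 (0.93). Irf1 was most like Tbc1d10a (0.92), Actn1 (0.92) and Sde2 (0.91), Irf8 most like Rab8a (0.88), Rpa3 (0.87) and Tram1 (0.87), and Ifng most like Nfyb (0.82), Slc35c1 (0.78) and Thap7 (0.72). The median r over all genes ranked was between -0.07 and 0.04 for these 5 members. These are descriptions of 20 libraries, and no gene with a mean under 10 CPM was ranked.

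Genes that respond to interferon-gamma in many cells more often had a negative than a positive change in C269, with none passing the test. Of the 25 on the list (the guanylate-binding proteins, immunoproteasome and antigen-transport genes, chemokines and others), 19 had a negative change in 4T1 (median -0.33, against 0.04 over all genes), 19 of 24 tested in CD4 (median -0.13, against 0.00) and 19 of 23 tested in CD8 (median -0.12, against 0.01). Over all genes, 52.9% of changes were positive in 4T1, 50.8% in CD4 and 50.9% in CD8. None of the list passed, and 2, 1 and 6 of them had an unadjusted p under 0.05, beside 1557 of 12875, 697 of 12393 and 725 of 10943 genes. The 4T1 majority was absent without libraries 9 and 10, where 12 of 25 were negative and the median was 0.01. The list's smallest p-values in 4T1 were those of Nos2, inducible nitric oxide synthase (40.8 ± 11.1 CPM in C269 and 136 ± 88.4 CPM in CTRL, change -1.67, SE 0.43, edgeR adjusted p = 0.355; called by DESeq2, adjusted p = 0.013), and Cxcl9, a T cell chemokine (51.5 ± 18.3 and 144 ± 133 CPM, -1.37, SE 0.48, adjusted p = 0.359). Without libraries 9 and 10 the Nos2 change was -1.42 (SE 0.49, edgeR adjusted p = 0.809) and was not called by DESeq2 (adjusted p = 0.157), and that of Cxcl9 was -1.08 (SE 0.53, edgeR adjusted p = 0.884). In CD8 Gbp7, a guanylate-binding protein, measured 138 ± 17.6 CPM in C269 and 192 ± 30.4 CPM in CTRL (-0.46, SE 0.16, edgeR adjusted p = 0.739). In CD4 they were Psme2, a proteasome activator subunit (198 ± 41.4 and 261 ± 17.2 CPM, -0.41, SE 0.15, adjusted p = 0.865), and Psmb8, an immunoproteasome subunit (381 ± 69.5 and 473 ± 76.5 CPM, -0.32, SE 0.16, adjusted p = 0.883).

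Of 18 further genes of the JAK-STAT family, 11 had a positive change in 4T1, 11 in CD4 and 10 in CD8, with medians of 0.03, 0.10 and 0.02 and none past the edgeR threshold. Socs2, an inhibitor in the same family as Socs1 and Socs3, had higher means in C269 in CD4 (121 ± 39.8 against 65.9 ± 24.9 CPM; 0.85, SE 0.25, adjusted p = 0.743) and in CD8 (46.2 ± 23.9 against 27.01 ± 5.62 CPM; 0.79, SE 0.34, adjusted p = 0.742). The CD4 value passed with no low-count filter (adjusted p = 0.00748). The other genes named by rule were Stat6 in CD4 (0.21, SE 0.13), the phosphatase Ptpn6 in CD8 (-0.38, SE 0.19), and Stat2 (-0.71, SE 0.28) and the phosphatase Ptpn11 (-0.48, SE 0.19) in 4T1, with adjusted p-values of 0.903 (Stat6), 0.742 (Ptpn6), 0.367 (Stat2) and 0.379 (Ptpn11). Without libraries 9 and 10 the 4T1 changes were -0.48 for Stat2 and -0.49 for Ptpn11 (SE 0.27 and 0.23, edgeR adjusted p = 0.884 for both).

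Among 12 regulators known to promote Ifng in lymphocytes, such as T-bet (Tbx21), Eomes and the receptors for interleukins 12 and 18, 9 had a positive change in 4T1, 11 in CD4 and 4 in CD8, with medians of 0.39, 0.33 and -0.03 and none past the threshold (0, 3 and 2 at an unadjusted p under 0.05). Without libraries 9 and 10 all 12 were positive in 4T1 (median 1.06), where T cell marker sums were 234 to 317 CPM in libraries 6 to 8 against 13.5 to 205 CPM in CTRL. In CD4 the NK marker sum was also higher in every C269 library (83.0 CPM in library 19 and 29.8 to 33.5 CPM in the others) than in any CTRL library (12.6 to 28.01 CPM). The ranges nearly touched. Of single genes with a mean of at least 5 CPM, 0.385% showed this order in CD4. Eomes is in both that sum and the list of 12, so the sum and the list are not independent. The part of NK cells in the CD4 values was not tested. In CD4 the smallest p-values were those of Il18rap, a chain of the interleukin 18 receptor (47.6 ± 15.5 CPM in C269 and 27.02 ± 9.88 CPM in CTRL; 0.80, SE 0.27, edgeR adjusted p = 0.745), and Eomes (14.6 ± 6.76 and 6.48 ± 4.73 CPM; 1.13, SE 0.48, adjusted p = 0.882). In CD8 they were Il12rb1, a chain of the interleukin 12 receptor (20.8 ± 26.6 and 5.83 ± 4.12 CPM; 1.80, SE 0.70, adjusted p = 0.739), whose C269 values ran from 6.12 to 68.3 CPM, and Il27ra (52.4 ± 16.5 and 75.5 ± 5.31 CPM; -0.51, SE 0.22, adjusted p = 0.742). In 4T1 they were Hlx, a homeobox factor of T helper 1 cells (-0.43, SE 0.42), and Il12rb2 (1.46, SE 1.47), with an adjusted p of 0.71 and 0.721. Without libraries 9 and 10 these changes were 0.033 (SE 0.33) for Hlx and 2.17 (SE 1.18, edgeR adjusted p = 0.884) for Il12rb2.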

How the data were processed

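Counts, 1 column per library, were deposited by the authors as raw whole numbers in 3 tables, and per the submitters' processing notes they came from featureCounts, with FastQC, DESeq2 and the build mm9 also named. Gene starts equalled those of GENCODE M21 for 99.6% of genes, so positions are given in GRCm38. The baseMean signal (the mean of size-factor-scaled counts), the log2 fold changes of CTRL over C269, the Wald score and the p-values are the authors' own, per the file headers, and their values for the members were only copied. Library columns carry numbers, and each condition column equalled the sum of exactly 1 set of 5 libraries, which gave the groups. A library's replicate letter is not given by its column.

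The 7 ribosomal RNA rows (3.05% of counts, 0.579% to 7.95% per library) were left out. For each population, the 5 C269 and 5 CTRL libraries were fitted in edgeR 4.0.16 (R 4.3.3) with filterByExpr, TMM and its quasi-likelihood F test, and adjusted p is Benjamini-Hochberg over all genes tested, called under 0.05. Populations were compared within each treatment in a fit of that treatment's 15 libraries, and differences of effect in a fit of all 30. Alternatives were DESeq2 1.42.0, its size factors, no low-count filter, ribosomal RNA kept, and leaving out each library or libraries 9 and 10. DESeq2 without libraries 9 and 10 was added after the data were seen. Shares called by DESeq2 are over every gene with a count, including genes it gave no adjusted p. They are not on the same base as edgeR's shares. Depth was 2178682 to 5208420 counts per library, so a transcript at 1 CPM rests on a few counts.

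Members, lists and the naming rule were chosen with earlier results of these data known. The rule names all 9 members, up to 4 passing genes of each list or else the 2 with the smallest p, and the 3 genes most correlated with Ifng, Irf1, Irf8, Socs1 and Socs3. Promoter sequences are from RefSeq (GRCm38.p6). A gene that the rule names is not reported here.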

Additional observations from a re-analysis of the deposited data

Results flagged for a closer look

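In 8 of 54 groups of 5 libraries, 1 library lay farther from the others than Dixon's 95% limit for the gap over the range, which chance alone would give in about 1 group in 20. That is 14.8% of the members' groups, beside 8.73% over all 11435 genes with a mean of at least 5 CPM. By group this share was 11.6% in 4T1 CTRL, 10.7% in CD4 CTRL and 6.51% in CD8 CTRL. In C269 it was 4.74% in 4T1, 8.31% in CD4 and 10.6% in CD8. All 8 were CTRL groups, and libraries 5, 14 and 15 each account for 2 of them, so they are not independent. In CD4 CTRL, library 15 had 565.7 CPM of Ifngr1, against 363 to 375 CPM in the other 4, and 264.7 CPM of Jak2, against 164 to 190.2 CPM. Without it, the lower Jak2 of CD8 against CD4 in CTRL was no longer called. Library 14 of that group had 33.01 CPM of Ifngr2, against 67.4 to 79.4 CPM, and 39.8 CPM of Socs1, against 146 to 188 CPM, beside the macrophage marker sum of 3665 CPM given above. In 4T1 CTRL, library 5 had 313 CPM of Irf1, against 592 to 662 CPM, and 97.3 CPM of Socs1, against 36.6 to 43.02 CPM, and library 2 had 191 CPM of Jak2, against 109 to 119 CPM. In CD8 CTRL, library 24 had 667 CPM of Irf1, against 895 to 979 CPM. What set these libraries apart was not tested.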

How the results depend on the processing

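No paired analysis was possible because the columns carry no replicate letters. Without libraries 9 and 10 the 4T1 change turned sign for Jak1 (0.29, and 0.27 with DESeq2) and Hlx (0.033). Leaving out 1 library turned the sign of Ifng in 4T1 (-0.31 to 1.23), Jak1 in 4T1 (-0.28 to 0.081) and CD4 (-0.0056 to 0.20), and Irf8 in CD4 (-0.12 to 0.20) and CD8 (-0.036 to 0.34). The cause was not tested. Genes called for the C269 effect numbered 0 in 4T1, against 998 with DESeq2, 99 with DESeq2 without libraries 9 and 10 and 606 in a fit of all 30 libraries; 0 in CD4, against 16 with DESeq2 and 83 with no low-count filter; and 1 in CD8, against 15, 162 and 0 in the fit of all 30. Leaving out 1 library gave 0 to 10 in CD4 and 0 to 1 in CD8. For 4T1 against CD4 in CTRL, 1679 were called, against 2579 with DESeq2 and 998 to 1938 with 1 library left out. In C269, CD8 against CD4 had 538, against 1370 with DESeq2, 343 with no filter and 227 to 643 with 1 library left out; 4T1 against CD4 had 417, against 1355 with DESeq2, 662 with DESeq2 without libraries 9 and 10 and 142 to 648; and 4T1 against CD8 had 2807, against 4407 with DESeq2. CD8 against CD4 in CTRL ranged from 1133 to 2126 with 1 library left out, around 1658. Differences of effect had 0 for CD8 minus CD4, against 19 with DESeq2 and 0 to 1 with 1 library left out; 1 for 4T1 minus CD4, against 76, 6 with no filter, 0 without libraries 9 and 10 by either tool and 0 to 16; and 1 for 4T1 minus CD8, against 597, 58, 32 with DESeq2 without libraries 9 and 10 and 1 to 220.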

Other observations

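Of the 12 listed regulators that promote Ifng in lymphocytes, 5 were higher in CD8 than in CD4 in CTRL by edgeR and none lower, where 3.47% of all genes were called higher and 9.09% lower. These 5, named after their values were seen, were the T-box factors Eomes (4.55 on the log2 scale, SE 0.75, adjusted p = 0.000582) and Tbx21 (2.66, SE 0.71, adjusted p = 0.0179), the interleukin receptor chains Il12rb2 (2.81, SE 0.74, adjusted p = 0.017) and Il18rap (1.73, SE 0.31, adjusted p = 0.001), and Runx3, a factor of the CD8 lineage (1.07, SE 0.24, adjusted p = 0.00571). In the 4T1 fraction of CTRL 10 of the 12 were lower than in CD8 and 1, Hlx, was higher (2.16, SE 0.46, adjusted p = 0.00135), where 40.6% of all genes were called, 17.9% lower. Against CD4, 4 of the 12 were lower in the 4T1 fraction (Il18r1, Il27ra, Nfatc2 and Runx3) and none higher, where 5.71% of all genes were called lower.

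Of the 25 interferon-gamma responsive genes, 24 were tested, and the 4T1 fraction had 8 higher and 6 lower than CD8 in CTRL by edgeR, where 40.6% of genes were called. Among the higher ones were Nos2 (3.46, SE 0.45, adjusted p = 1.96e-05), the chemokine Cxcl10 (1.34, SE 0.21, adjusted p = 9.23e-05) and Cd274, which encodes PD-L1 (1.35, SE 0.20, adjusted p = 5.77e-05), and among the lower ones Nlrc5, a regulator of MHC class I genes (-1.90, SE 0.29, adjusted p = 7.02e-05). These were also named after their values were seen.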
